A study of Mus musculus with 4 samples.

Results

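Cation-chloride cotransporters are membrane proteins that carry chloride together with sodium or potassium, and 4 of their genes, Slc12a2, Slc12a5, Slc12a4 and Slc12a7, were read out of the 29224 genes in the count table by gene name. RNA had been sequenced from astrocyte preparations of the cortex of P5 mice, collected with magnetic beads against GLAST, the glutamate transporter that Slc1a3 encodes and that astrocytes carry on their surface. The 2 Ezh2 f/f libraries (f/f) came from mice with floxed Ezh2, the gene of the methyltransferase that places the H3K27me3 mark. The 2 Ezh2 cKO libraries (cKO) came from mice that carry the same floxed alleles and also Cre recombinase under the control of Aldh1l1, an astrocyte gene, so the floxed alleles are shared by both groups and Cre is not. The labels and methods do not say whether a library came from 1 animal or from pooled animals, so p-values measure only the spread between these libraries, which may be technical. The question put to the data was whether transcripts that set the direction of chloride transport differed between the groups.

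Slc12a2 encodes NKCC1, which loads cells with sodium, potassium and chloride. Slc12a5 encodes KCC2, a neuronal transporter that uses the potassium gradient to remove chloride, and Slc12a4 and Slc12a7 encode KCC1 and KCC4, potassium-chloride cotransporters of many tissues that are known for their part in cell volume control. In the rodent cortex KCC2 rises in the first postnatal weeks, chloride in neurons falls with it, and the response to the transmitter GABA turns from depolarising to inhibitory, so that the balance of KCC2 to NKCC1 is widely used as a sign of neuronal maturation.

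Slc12a5 is transcribed from a pair of neighbouring first exons, known to give the KCC2a and KCC2b forms, and the windows of 250 bases before both starts are shown because the member that rose the most is transcribed from these starts and because known regulators of it, described below with their transcripts, read E-box and EGR motifs. They are RefSeq sequences on GRCm38.p6, which are not the coordinates of the deposited table, on the + strand of chromosome 2, at chr2:164960596-164960845 for the upstream start and chr2:164967738-164967987 for the downstream start, and capitals mark a match to the E-box.
upstream start: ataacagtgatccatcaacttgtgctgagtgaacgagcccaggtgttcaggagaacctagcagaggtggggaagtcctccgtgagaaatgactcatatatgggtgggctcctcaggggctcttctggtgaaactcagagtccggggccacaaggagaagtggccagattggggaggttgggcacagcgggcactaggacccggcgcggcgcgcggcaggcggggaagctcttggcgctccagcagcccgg
downstream start: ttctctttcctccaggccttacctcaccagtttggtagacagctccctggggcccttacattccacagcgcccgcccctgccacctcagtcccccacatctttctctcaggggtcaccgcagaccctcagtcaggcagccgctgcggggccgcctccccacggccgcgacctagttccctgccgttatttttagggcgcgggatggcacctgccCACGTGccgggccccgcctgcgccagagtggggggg
The E-box, CACGTG, which reads the same on both strands, occurred once, in the downstream window, beginning 36 bases before the start. It was present in 1978 of 32851 mouse promoter windows of the same length (6.02%). The EGR motif, GCGNGGGCG, searched on both strands, was in neither window and in 4.70% of all windows, and it was absent from the windows of Slc12a4 and Slc12a7 too. Among those, an E-box stood 38 bases before 1 of the 2 annotated starts of Slc12a7 and none was found for Slc12a4. The windows of Slc12a5 were 61.2% and 67.2% G or C with 13 and 16 CpG sites, where the median window had 52.4% and 6. Such matches describe the letters only, and the counts per gene cannot say from which start a read came.

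Total counts ran from 16273308 to 17522152 per library. At these totals 3 counts, an approximate upper 95% limit on the expected count where 0 was seen, equal 0.171 to 0.184 CPM without TMM factors. All other CPM (counts relative to library size) are given with TMM factors. Ezh2 itself had 434 and 327 counts in the f/f libraries and 211 and 164 in the cKO libraries (log2 fold change -1.11, SE 0.16), so its transcripts were lower but present in both libraries labelled cKO. Differences between the groups were widespread. Of 16793 genes tested with edgeR's quasi-likelihood test, 68.4% were called at an adjusted p under 0.05, 34.7% as higher and 33.6% as lower in cKO, and in 84.3% the CPM of the groups did not overlap. Against this background 3 of the 4 members called, 2 higher and 1 lower, and 4 of 4 without overlap is no result about the members as a set. What can be described is the direction and size of each.

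Slc12a5 (ENSMUSG00000017740, chromosome 2, 164802722 to 164841651, + strand, as deposited) was counted 1500 and 1614 times in the f/f libraries and 4485 and 4474 times in the cKO libraries. Both cKO libraries stood well above both f/f libraries. The mean rose from 95.3 ± 10.5 to 256 ± 2.72 CPM (SD, n = 2 in each group), or by a log2 fold change of 1.43 (SE 0.10, edgeR adjusted p = 1.93e-08), or 2.69-fold. The size of this difference was larger than that of 80.5% of tested genes. Per length, Slc12a5 held 12.4 FPKM in f/f and 35.4 in cKO on average, and its rank by mean FPKM moved from 4157 to 1568. It was called in each alternative fit, including the 4 that each left out 1 library.

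Slc12a2 (ENSMUSG00000024597, chromosome 18, 58011750 to 58079893, + strand, as deposited), the chloride importer, was counted 348 and 349 times in f/f and 254 and 337 times in cKO. The cKO libraries differed from each other by more than the second of them differed from f/f. Means were 21.3 ± 1.30 and 16.9 ± 3.57 CPM (SD, n = 2 in each group), with a log2 fold change of -0.33 (SE 0.16, edgeR adjusted p = 0.0733) that did not pass the threshold. The call changed when single libraries were left out. With f/f replicate 1 left out the log2 fold change was -0.39 (edgeR adjusted p = 0.0250), without cKO replicate 2 it was -0.56 (edgeR adjusted p = 0.0254), and without cKO replicate 1 it was -0.13 (edgeR adjusted p = 0.529). Over the alternatives the adjusted p ran from 0.0250 to 0.529, so these data do not settle whether the transcript differed.

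Slc12a4 (ENSMUSG00000017765, chromosome 8, 106670222 to 106692729, - strand, as deposited), which encodes the widely expressed KCC1, was counted 284 and 303 times in f/f and 507 and 409 times in cKO. Both cKO libraries were above both f/f libraries, with replicate 1 the higher. The mean rose from 18.0 ± 1.88 to 26.2 ± 3.64 CPM (SD, n = 2 in each group), or by a log2 fold change of 0.55 (SE 0.14, edgeR adjusted p = 0.00360). The call rested on cKO replicate 1, since without it the log2 fold change was 0.40 (edgeR adjusted p = 0.0810; over all alternatives from 0.000141 to 0.0810). Its exons overlap Gm16156 on the opposite strand, which had at most 7 counts in a library; the use of strand in counting is not given in the sources used here.

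Slc12a7 (ENSMUSG00000017756, chromosome 13, 73881213 to 73964873, + strand, as deposited), which encodes KCC4, moved the other way from Slc12a4 and Slc12a5. It was counted 452 and 441 times in f/f and 242 and 220 times in cKO. Replicates lay close together and the groups were far apart. The mean fell from 27.3 ± 1.13 to 13.2 ± 0.727 CPM (SD, n = 2 in each group), or by a log2 fold change of -1.04 (SE 0.13, edgeR adjusted p = 8.33e-06), and the call held in each alternative fit. The difference was larger in size than that of 68.0% of tested genes, whose median absolute log2 fold change was 0.69.

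**Figure D1:**
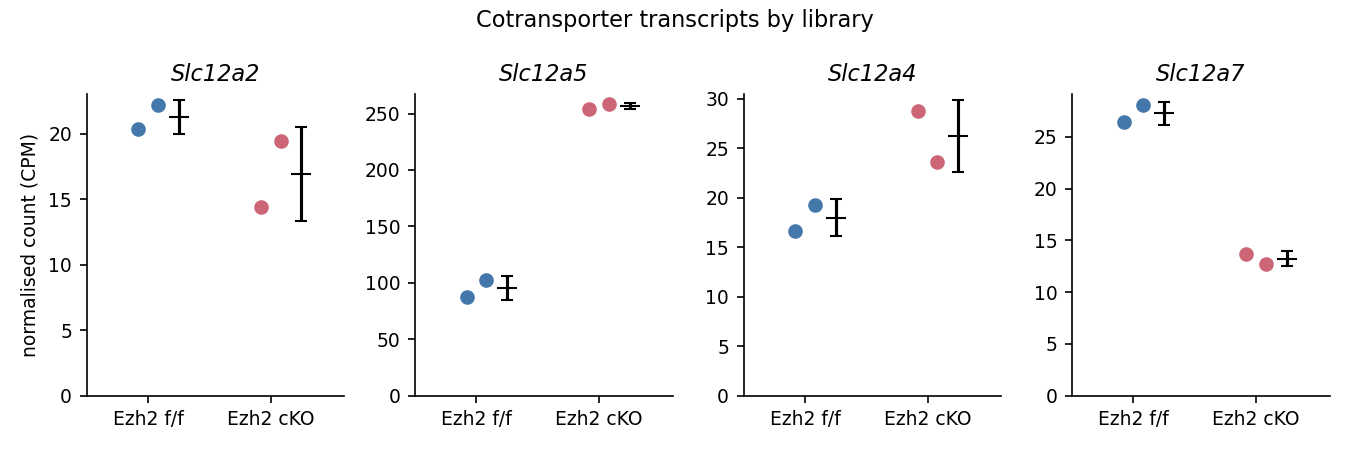
Normalised counts (CPM, vertical axis, separate scales from 0) of the 4 members in each library; points are libraries, bars beside them the mean and SD of 2 libraries. Slc12a5 rose from 95.3 to 256 CPM and Slc12a7 fell from 27.3 to 13.2, while the 2 cKO libraries of Slc12a2 are spread apart.

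The ratio of Slc12a5 to Slc12a2 is free of library size. In bulk RNA the transcripts of Slc12a5 and Slc12a2 may come from different cells, so their ratio cannot be read as a balance within a cell. The ratio was 4.31 by counts in f/f replicate 1 (95% exact binomial interval 3.83 to 4.86) and 4.62 in replicate 2 (4.12 to 5.21). In cKO it was 17.7 (15.6 to 20.1) in replicate 1 and 13.3 (11.9 to 14.9) in replicate 2. Intervals cover counting error only. The 2 f/f libraries agreed within counting error, whereas those of cKO did not overlap, replicate 1, with the lower Slc12a2 count, being higher. On the log2 scale the ratio was 2.16 ± 0.07 in f/f and 3.94 ± 0.29 in cKO (SD, n = 2 each). The difference of 1.78, or 3.43-fold, was larger than the spread in either group, but a two-sided exact permutation test over 2 against 2 libraries cannot go below p = 0.33, and gave that value. It ran from 1.57 to 1.98 with each library left out in turn. Per length the ratio was 6.32 and 6.78 in f/f and 25.9 and 19.5 in cKO, so Slc12a5 exceeded Slc12a2 in every library. The edgeR log2 fold changes of the genes in the ratio were 1.43 for Slc12a5, which was called, and -0.33 for Slc12a2, which was not.

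**Figure D2:**
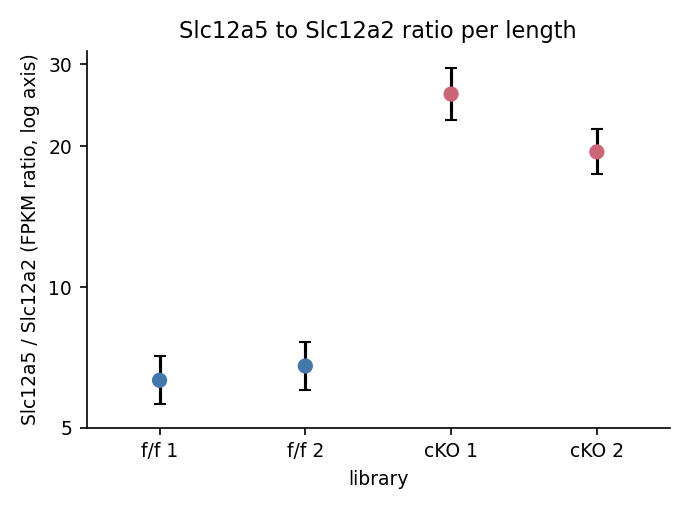
Ratio of Slc12a5 to Slc12a2 per length (FPKM ratio, log axis) in each library; bars are 95% exact binomial intervals from the counts. Both cKO libraries (25.9 and 19.5) lie above both f/f libraries (6.32 and 6.78), and the cKO intervals do not overlap each other.

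FPKM, which divides counts by gene length and library size, sets levels side by side between genes only as far as the length used for each gene holds. The lengths implied by the deposited FPKM were 12669 bases for Slc12a7, 10920 for Slc12a2, 7447 for Slc12a5 and 4279 for Slc12a4. By counts Slc12a7 stood above Slc12a4 in both f/f libraries, while by FPKM it stood below. The orders, shares and ratios per length given here thus rest on the lengths used. In f/f the order of mean FPKM among the SLC12 genes described here was Slc12a9 at 14.9, Slc12a5 at 12.4, Slc12a4 at 4.07, Slc12a7 at 2.09 and Slc12a2 at 1.89, with Slc12a8, Slc12a3 and Slc12a1 under 1 FPKM. Neighbours in this order did not overlap between libraries down to Slc12a2. In cKO Slc12a5 led at 35.4 FPKM, followed by Slc12a9 at 9.76, Slc12a4 at 6.28, Slc12a2 at 1.6 and Slc12a7 at 1.07. Slc12a5 thus changed places with Slc12a9, and Slc12a7 with Slc12a2, in both cases without overlap between libraries; with 2 libraries these orders are a description.

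The 3 members that export chloride with potassium, Slc12a4, Slc12a5 and Slc12a7, summed to 17.3 and 19.8 FPKM in f/f and 42.7 and 42.8 in cKO. Slc12a5 supplied 66.4% and 67.2% of this sum in f/f and 81.4% and 84.2% in cKO. The share of Slc12a7 was 11.8% and 10.8% in f/f and 2.58% and 2.43% in cKO. Slc12a4 took 21.9% and 22.0% against 16.0% and 13.4%, a lower share despite its higher level. The sum stood to Slc12a2 as 9.52 and 10.1 in f/f and as 31.8 and 23.1 in cKO.

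**Figure D3:**
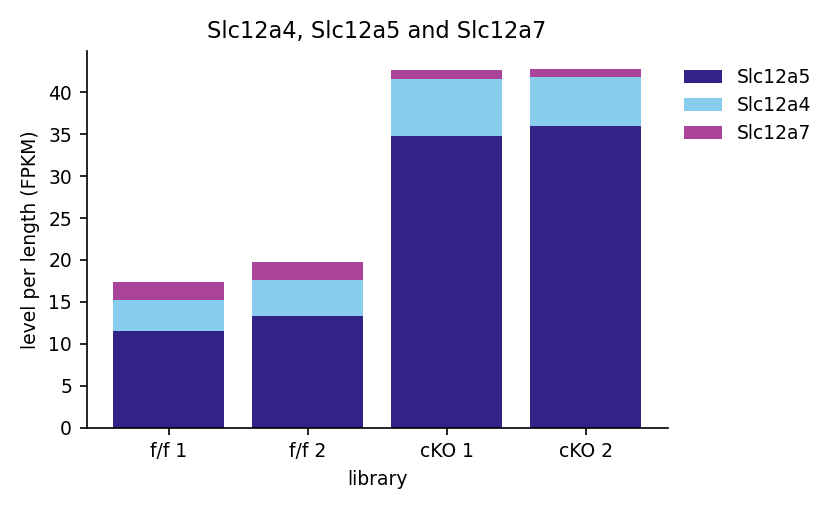
Levels per length (FPKM, from 0) of Slc12a4, Slc12a5 and Slc12a7, stacked for each library. The sum is 17.3 and 19.8 in f/f and 42.7 and 42.8 in cKO, and Slc12a5 makes up 66.4% to 67.2% and 81.4% to 84.2% of it.

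Of 4 other SLC12 genes, 3 passed the filter on low counts and 2 of these were lower at the threshold by edgeR. Slc12a9, which encodes a family member of less settled transport function, fell by 0.69 on the log2 scale (SE 0.10, edgeR adjusted p = 2.70e-05). Slc12a3, the thiazide-sensitive cotransporter of the kidney, had only 11 and 14 counts in f/f and 6 and 4 in cKO, and its call (log2 fold change -1.39, edgeR adjusted p = 0.0392) was lost whichever library was left out and by DESeq2 (adjusted p over the alternatives from 0.0373 to 0.285). Slc12a8 was at -0.54 (edgeR adjusted p = 0.122), and Slc12a1, the kidney sodium-potassium-chloride cotransporter, had at most 2 counts and was not tested.

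Cotransporter activity is set by the WNK kinases, which act through SPAK (Stk39) and OSR1 (Oxsr1) to phosphorylate the transporters, activating NKCC1 and inhibiting the KCC proteins. Of 10 genes listed for this pathway, 2 rose, 4 fell and 4 did not pass the test, with a median log2 fold change of -0.09 beside 0.02 over all tested genes. Over all tested genes 34.7% were called higher and 33.6% lower. Wnk2 was counted 5868 and 5529 times in f/f and 3073 and 2703 times in cKO, a log2 fold change of -1.07 (SE 0.09), and Wnk4 had -1.27 (SE 0.18). The effector kinases had log2 fold changes of 0.22 for Stk39 and -0.02 for Oxsr1 and were not called, nor were Wnk1 at 0.06 and Wnk3 at -0.15. Of the scaffold genes for these kinases, Cab39 (MO25 alpha) fell by 0.67 and its paralog Cab39l rose by 1.89, from 77 and 87 counts to 309 and 342. Klhl3 and Cul3, which together mark WNK kinases for degradation, differed in direction, at 1.05 and -0.52. Transcripts do not show phosphorylation, which is how these kinases act on the members.

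Among 11 genes of transcription factors, signals and binding partners known for Slc12a5, 5 rose, 5 fell and 1 did not pass the test. Of all tested genes 68.4% were called, and the list was not tested as a set. Egr4, a transcription factor known to activate Slc12a5, was counted 48 and 41 times in f/f and 411 and 452 times in cKO, a log2 fold change of 3.18 (SE 0.18). Usf1 and Usf2, which encode activators that bind E-boxes, fell by 1.40 and 1.08, and Rest, a repressor of neuronal genes, fell by 1.03 (SE 0.19) from 153 and 141 counts to 76 and 77. Bdnf rose by 1.76, from 44 and 25 counts to 124 in both cKO libraries, and its receptor Ntrk2 rose by 0.82. The binding partners were split as well. Ckb, a creatine kinase that binds KCC2, rose by 0.67 and Epb41l1, which encodes a cytoskeletal protein of the 4.1 family, rose by 0.48, while Arhgef7, a guanine exchange factor bound by KCC2, fell by 1.14 and Neto2, an auxiliary subunit of kainate receptors, fell by 0.55. Grik2, the kainate receptor subunit itself, had -0.04. Of the transcription factors known as activators, Egr4 thus rose with Slc12a5 while Usf1 and Usf2 fell, and the known repressor Rest fell. Whether any of them acted on Slc12a5 in these cells was not tested.

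In a list of 21 other chloride and bicarbonate transport genes, 11 rose and 8 fell, with a median log2 fold change of 0.38, which does not depend on the value given to Lrrc8e. Over all tested genes the median was 0.02 and 68.4% were called, and this list was not tested as a set either. The sodium-bicarbonate cotransporter gene Slc4a4 rose by 2.21 (SE 0.10), from 309 and 281 counts to 1464 and 1454. The cytosolic carbonic anhydrase genes Car2 and Car7 rose by 2.56 and 3.15, and Ttyh1, a member of a family described as chloride channels, rose by 1.74. Of its relatives Ttyh3 fell by 0.89 and Ttyh2 was at 0.01. Of the ClC genes, Clcn2, a plasma membrane chloride channel, fell by 0.78 and Clcn6, of late endosomes, by 0.75, whereas Clcn3 rose by 0.90. Lrrc8e, a subunit of the volume-regulated anion channel, had 11 and 10 counts in f/f and 0 in both cKO libraries, where 3 is the approximate upper limit taken for a 0.

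**Figure D4:**
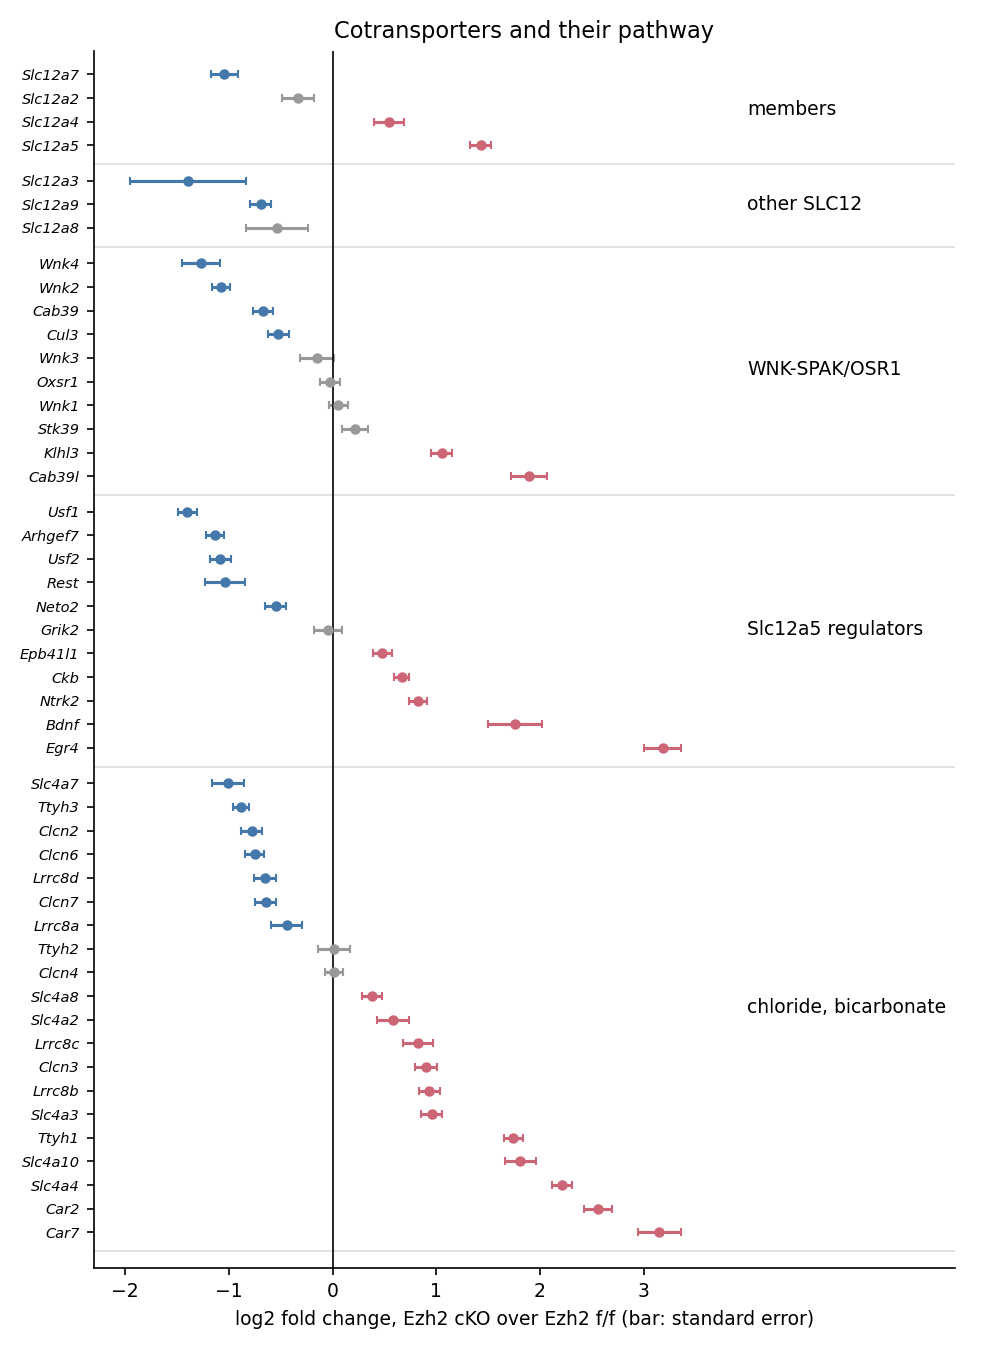
Log2 fold changes of cKO over f/f (horizontal axis; bars are standard errors from edgeR) for the tested members, the other SLC12 genes, the WNK pathway, the regulators and partners of Slc12a5 and other chloride and bicarbonate transport genes. Red points were called higher, blue lower and grey not called; Lrrc8e, at 0 counts in cKO, is not drawn, and called genes lie on both sides of 0 in each list of more than 4 genes.

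Markers of neurons and glia differed between the groups too, in both directions. In bulk RNA, more or fewer cells of a type and more or less RNA per cell cannot be told apart. The astrocyte list summed to 226 and 236 FPKM in f/f and 814 and 736 in cKO, with 11 of 12 markers higher. In f/f its genes ranged from S100b, with a mean of 1.28 CPM, to Glul, with 380 CPM. Slc1a3, which encodes the target of the beads, had means of 100 CPM in f/f and 301 CPM in cKO (log2 fold change 1.59, edgeR adjusted p = 2.71e-09). Aldh1l1, which drives Cre, had means of 77.4 CPM in f/f and 69.6 CPM in cKO and was the marker not called. The pan-neuron list summed to 2211 and 2283 FPKM in f/f and 1986 and 1990 in cKO, with 9 of 10 genes higher and Tubb3 lower. Tubb3 alone held 1859 and 1897 FPKM of the f/f sums. By CPM the sum went the other way, from 5871 and 6151 in f/f to 6933 and 6925 in cKO. By either measure neuronal transcripts were abundant in every library of the labelled astrocytes. All 10 neuronal markers that rise later in development were higher (341 and 310 against 2262 and 2143 FPKM), and 7 of 8 that fall early were lower (3544 and 3493 against 1461 and 1524 FPKM). Markers of oligodendrocytes (7 of 7 tested), their precursors (7 of 8) and microglia (8 of 8) were higher, and 7 of 8 progenitor and cycling markers were lower. Of 8 endothelial markers 3 were higher and 1 lower, and of 6 mural markers 2 were higher and 1 lower. The shares called higher were near the 34.7% of all tested genes, and those called lower were under the 33.6% of all tested genes. Of 6 erythrocyte markers 3 were higher, and 0 were without f/f replicate 1 or without cKO replicate 1. Choroid plexus and ependymal markers, led by Ttr, summed to 319 and 623 FPKM in f/f and 6.89 and 6.56 in cKO, with 5 of 6 tested lower.

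Set against these lists, the log2 fold change of Slc12a5 lay close to the pan-neuron median of 1.45 and below the later-rising neuronal median of 2.44. Single pan-neuron genes ran from -0.71 for Tubb3 to 2.61 for Syt1. Glial medians were 1.03 for oligodendrocyte precursors, 1.62 for microglia, 1.69 for astrocytes and 2.93 for oligodendrocytes. Nearness to a list median was thus not particular to neuronal lists. Per 1000 CPM of the pan-neuron list Slc12a5 had 15.0 and 16.7 CPM in f/f and 36.7 and 37.3 in cKO. It thus rose relative to that CPM sum, in which Tubb3 made up 60.2% in f/f. Per 1000 CPM of the later-rising list it had 89.5 and 112 in f/f and 39.6 and 43.0 in cKO, and per 1000 CPM of the astrocyte list 86.4 and 95.8 against 62.9 and 70.4. Slc12a7 had 4.51 and 4.56 against 1.98 and 1.83 per 1000 CPM of the pan-neuron list, and was lower in cKO relative to the later-rising and astrocyte lists too. Per 1000 CPM of the early neuron list it was at 2.19 and 2.30 against 2.70 and 2.43, per 1000 CPM of the progenitor list at 67.9 and 69.6 against 69.2 and 66.7, and per 1000 CPM of the choroid plexus list at 64.2 and 35.1 against 736 and 748. The directions of Slc12a5 and Slc12a7 thus depended on the list they were read against. The log2 fold change of -1.04 for Slc12a7 stood beside medians of -1.02 for progenitor and cycling genes and -2.16 for choroid plexus genes. The part of cell composition in these results was not tested.

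**Figure D5:**
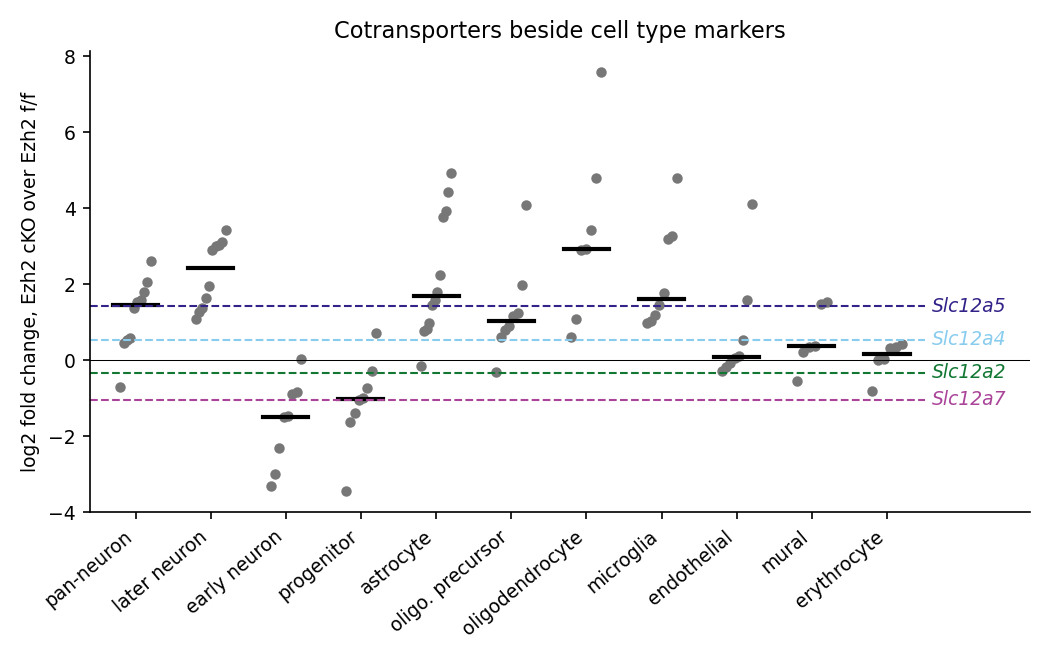
Log2 fold changes of cKO over f/f for the tested genes of 11 marker lists (points; thick bars are list medians), with the 4 members as dashed lines. Slc12a5 (1.43) lies beside the pan-neuron median (1.45), near the microglia (1.62) and astrocyte (1.69) medians and under the later neuron median (2.44). Choroid plexus genes, with Ttr far below the others, are not drawn.

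The genes nearest to each member in pattern were sought among 9970 genes with a mean of at least 10 CPM, by the distance between log2 CPM deviations over the 4 libraries. With 4 libraries and a wide difference between groups, many genes share such a pattern. Nearest to Slc12a5 were Slc2a3, the neuronal glucose transporter (distance 0.04), Cacnb4, a calcium channel subunit, and Rnf112, a ubiquitin ligase gene, with log2 fold changes of 1.43, 1.46 and 1.41. Slc12a2 was nearest to Mthfd1l, Zfp788 and Kdm6a, an H3K27 demethylase gene, which had -0.37, -0.31 and -0.35. Vtn, Trpm4 and Sord were nearest to Slc12a4, and Sap30bp and Zfp316 to Slc12a7, with log2 fold changes from 0.54 to 0.58 for the first 3 and of -1.04 for both of the others.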

How the data were processed

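RNA-seq was analysed from 2 Ezh2 f/f and 2 Ezh2 cKO libraries of P5 cortical astrocyte preparations. The authors deposited raw read counts and FPKM per gene; the deposited FPKM equal the count divided by the library total and by 1 length per gene in 19461 of 19461 genes checked (tolerance 0.001). The submitters' processing notes name TopHat2 2.0.12, Bowtie2 2.2.3, HTSeq 0.6.0 and mm9, with no use of strand given. Of 28799 genes matched to GENCODE M21 on GRCm38, 581 had the same position. The build of the deposited positions was not settled, and whether it is mm9 was not checked, so positions are given as in the deposited table, without conversion. The authors also deposited their own comparison (a mean signal, fold ratio, log2 ratio and p-values, with Ezh2 f/f as the numerator), which was not used, and 0 sample columns were left out.

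Genes were filtered with filterByExpr, scaled by TMM (factors 0.967 to 1.04) and tested with edgeR 4.0.16 (glmQLFit and glmQLFTest, group only, common biological coefficient of variation 0.0953), with Benjamini-Hochberg adjustment over all 16793 genes. Here Ezh2 cKO is the numerator of each fold change. Alternatives used DESeq2 1.42.0 and limma 3.58.1 in R 4.3.3; ratios, exact tests and figures were made in Python 3.11.15 with scipy 1.17.1. On simulated data with 2 against 2 libraries edgeR recovered 192 of 200 changed genes with 12 false calls among 16523 genes. Those genes were changed at least 2-fold, equally in both directions, and all genes had the same spread. In the data 68.4% of genes were called, so these rates cannot be taken over to the calls reported here. The spread between replicates exceeded sampling noise (chi-square per degree of freedom 8.92 and 5.68). The members, gene lists and tests were chosen with earlier results of these data known. Named are the members, the other SLC12 genes, up to 3 called genes with the smallest p in each direction of each other list, genes a clause turns on, Ezh2, and the 3 genes nearest in pattern to each member, except that 2 of the genes this rule picks are not reported here. Marker lists are given by their counts and sums. Promoter windows came from RefSeq (GRCm38.p6), where all 3 members looked up (Slc12a4, Slc12a5 and Slc12a7) had an entry; no sequence is shown for Slc12a2.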

Additional observations from a re-analysis of the deposited data

How the results depend on the processing

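Directions of the members did not change in the alternatives run, which were DESeq2's test and size factors, other filters on low counts, limma on FPKM, a replicate block and leaving out each library. Slc12a5 ranged from 1.32 to 1.53 on the log2 scale and Slc12a7 from -1.10 to -0.58, the last on log2(FPKM + 1), a scale that understates changes of low genes and on which Cab39l was at 1.15. Both were called in each fit. Leaving out 1 library gave -0.56 to -0.13 for Slc12a2, with calls at -0.56 and -0.39, and 0.40 to 0.68 for Slc12a4, with 0.40 not called. The number of members called higher was then 1 to 2 and the number called lower 1 to 2. Fewer libraries were fitted in these alternatives, and the cause of the changed calls was not tested beyond that. The lone library of a group was assumed to vary like the other group.

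Replicate numbers are shared between the groups, but the labels do not tie a number to a litter or a day. Deviations of same-numbered libraries correlated with r = 0.11 over 16793 genes, which with 2 pairs says little about pairing. With the replicate block Slc12a2 had -0.34 (edgeR adjusted p = 0.0425) and was called, so that 2 members were called lower, and the ratio difference was 1.78, as without it. No other member's call changed with the block. Counts of all genes called higher or lower stayed within 1.5 times of the main counts. With 2 libraries per group, the spread of a single gene is estimated mainly from other genes. The depth behind Slc12a2, at 254 to 349 counts per library, limits how narrow the counting intervals of the ratio can be. The cKO libraries differed by more than these intervals, so the spread between libraries limits the ratio as well.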
